A study of Mus musculus with 6 samples.

Results

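The splicing factor and hnRNP genes of mDCT15 cells are described here. mDCT15 is a murine kidney line that stands for the distal convoluted segment of the tubule. The genes were chosen by symbol from the deposited table of gene expression: the Srsf, Tra2, Hnrnp, Snrp, Sf3a, Sf3b, U2af and Prpf genes and the Rbfox, Mbnl, Celf, Esrp, Ptbp, Nova and Qk genes, with Snrpn left out. The symbols took in 87 of the 20624 genes in the table, 86 of them protein-coding and 1, Snrpert, annotated as a processed pseudogene. RNA was sequenced from 6 samples, 3 of Pkd1-/- cells and 3 of wild type cells, and the labels number those of each genotype as biological replicates. Pkd1 encodes polycystin 1, a large membrane protein of the renal tubule, and its own mean over both genotypes was 3175, which does not check the labels. The methods describe the edited cells as made by CRISPR-Cas9, whereas the genotype field of the labels calls them a PKD1 knockdown. All samples came from the same cell line in the same serum-containing medium, and the labels name no other treatment. Each value is the authors' mean normalized count of a gene over all 6 samples, so it carries no error of its own, and it describes both genotypes together. The change between Pkd1-/- and wild type cells was not analysed here, nor were values of single samples, depth per library or the spread between replicates.

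Splicing removes introns from a newly made transcript and is carried out by the spliceosome, which is built from small nuclear ribonucleoproteins (snRNPs) and many further proteins. U1 recognizes the start of the intron, U2AF and U2 recognize its end and its branch point, and the tri-snRNP then joins to form the active machine. SR proteins bind exons and mostly promote their inclusion, hnRNP proteins coat nascent RNA and often act against inclusion, and further RNA-binding proteins with a restricted tissue range set which exons are used in neurons, muscle or epithelium. In kidney epithelium the Esrp proteins are known for the epithelial pattern of exon use.

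The 87 genes lay on 20 chromosomes and together held 271455 of 16746088 mean normalized counts, or 1.621% of the table and 1.81% of the counts of protein-coding genes. To compare genes with each other, each mean was divided by the summed length of the gene's exons in GENCODE. The authors counted reads on a different release, from Ensembl, and the effect of that difference was not tested. The quotient is a mean normalized count per kb. On this scale the median gene of the group stood at 274 per kb, against 28.61 per kb for all genes and 72.65 per kb for protein-coding genes. The median position of the group was the 88.29th percentile of all genes and the 83.57th percentile of protein-coding genes. Of the 87 genes, 41 (47.13%) were in the top 10% per kb of the table, 22 in the top 5% and 5 in the top 1%, while 10 were below the median of all genes. On the scale of the mean normalized count itself, 61 genes reached 1000, 79 reached 100 and 82 (94.25%) reached 10, a minimum that 66.54% of all genes reached. The 5 genes under a mean of 10 were Srsf12 (0.942), Celf6 (0.8468), U2af1l4 (3.326), Esrp1 (7.365) and Nova2 (9.348). Srsf12 encodes an SR-like protein, U2af1l4 a relative of the small U2AF subunit, and Celf6, Esrp1 and Nova2 belong to families with tissue-restricted members.

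**Figure D1:**
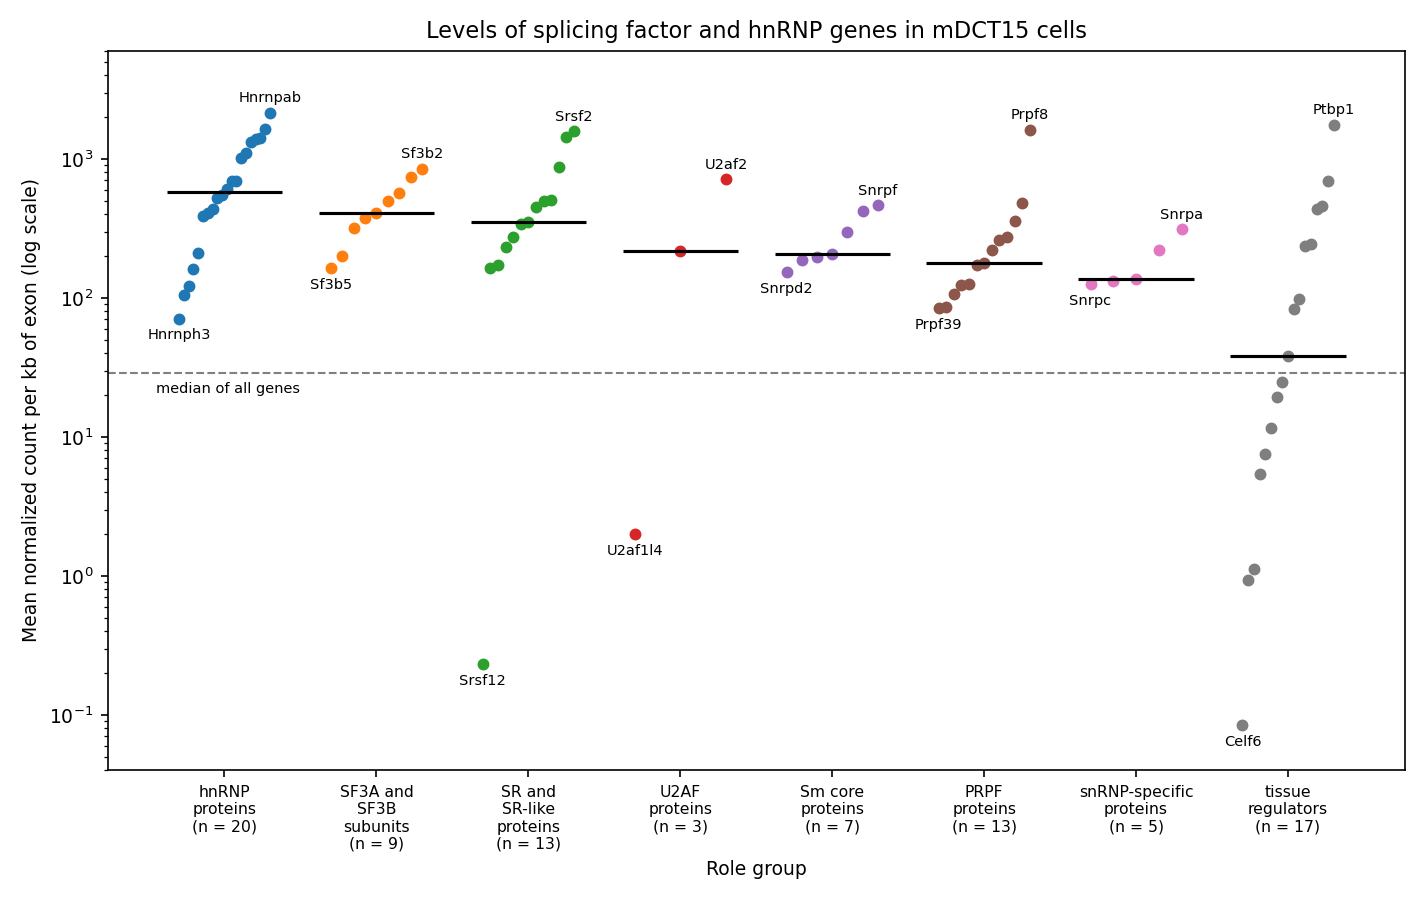
Mean normalized count per kb of exon (log scale) of each of the 87 genes in 8 role groups, ordered by the group median (black bar), with the dashed line at 28.61 per kb, the median of all genes. Points are single genes, each the authors' mean over 6 samples without an error. The 5 genes plotted as snRNP-specific proteins include the processed pseudogene Snrpert. The hnRNP genes have the highest median per kb of exon (577), a rank that the SR genes take per kb of coding sequence, and the tissue regulators reach from 0.08489 to 1761 per kb.

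Promoter sequence is shown for genes at both ends of this range. RefSeq promoters, which run from 250 bases before to 50 bases after the start of transcription on GRCm38.p6, were matched by symbol for 72 of the 87 genes, with 100 windows in all. Those of Hnrnpab and Srsf2, the highest hnRNP and SR genes per kb of exon, and of Srsf12 and Celf6, the lowest genes of the group, are shown 5′ to 3′ with every CG in capitals, on the strand of the gene. The windows are chr11:51606832-51607131 on the minus strand for Hnrnpab, chr11:116853045-116853344 on the minus strand for Srsf2, chr4:33209022-33209321 on the plus strand for Srsf12, and chr9:59578087-59578386 on the plus strand for Celf6. For Celf6 it is the window with more CG of the pair matched.
Hnrnpab: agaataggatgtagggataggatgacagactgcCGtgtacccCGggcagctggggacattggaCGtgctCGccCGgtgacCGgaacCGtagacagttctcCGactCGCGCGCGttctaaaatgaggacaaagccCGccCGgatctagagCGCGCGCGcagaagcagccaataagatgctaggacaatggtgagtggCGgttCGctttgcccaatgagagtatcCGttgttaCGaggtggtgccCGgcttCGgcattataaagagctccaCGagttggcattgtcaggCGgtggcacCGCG
Srsf2: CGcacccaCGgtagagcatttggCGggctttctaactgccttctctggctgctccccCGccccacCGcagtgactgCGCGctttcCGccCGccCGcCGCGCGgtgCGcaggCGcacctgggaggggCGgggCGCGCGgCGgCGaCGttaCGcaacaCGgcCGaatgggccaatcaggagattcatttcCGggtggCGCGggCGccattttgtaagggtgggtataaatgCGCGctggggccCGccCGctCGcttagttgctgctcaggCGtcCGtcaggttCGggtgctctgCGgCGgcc
Srsf12: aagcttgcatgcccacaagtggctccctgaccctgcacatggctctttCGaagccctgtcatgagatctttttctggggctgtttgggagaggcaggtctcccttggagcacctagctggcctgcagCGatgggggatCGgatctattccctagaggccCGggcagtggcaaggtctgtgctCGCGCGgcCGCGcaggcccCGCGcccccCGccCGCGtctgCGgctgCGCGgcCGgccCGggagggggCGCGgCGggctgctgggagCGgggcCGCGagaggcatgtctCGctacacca
Celf6: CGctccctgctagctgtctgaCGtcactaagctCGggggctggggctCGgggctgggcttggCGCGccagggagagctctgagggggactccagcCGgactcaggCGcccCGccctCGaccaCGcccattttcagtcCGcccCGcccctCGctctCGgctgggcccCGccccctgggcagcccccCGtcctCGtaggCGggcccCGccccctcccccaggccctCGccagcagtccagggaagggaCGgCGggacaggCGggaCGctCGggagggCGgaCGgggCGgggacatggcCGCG

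The 4 windows held 28 CG for Hnrnpab, 39 for Srsf2, 26 for Srsf12 and 31 for Celf6. The other window of Celf6 held 4, and no order of CG content by level is read from these windows. Across the 100 windows the median was 24.5 CG, against 7 in all 32851 windows of 27025 genes. At least 15 CG were found in 84 windows (84%), against 34.64% of all windows. GGGCGG, the letters bound by Sp1, occurred on either strand in 66% of the group's windows and in 35.66% of all windows. CCAAT occurred on either strand in 43% and 37.41%, and TATAAA on either strand in 8% and 13.62%. The windows of all genes were not limited to genes measured in these cells, and a comparison with expressed coding genes was not made. The windows of Hnrnpab and Srsf2 held all 3 motifs, and those shown for Srsf12 and Celf6 held GGGCGG and neither of the others. No order of motifs by level is read from this, since the window of Prpf8, also a high gene, held CCAAT alone. The windows of the 4 matched genes under a mean of 10 held between 4 and 31 CG, the lowest in the second window of Celf6. These counts describe letters in the reference and say nothing of binding in these cells.

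The hnRNP genes held the largest share of the counts. All 20 reached a mean of 10, 15 were in the top 10% of the table, and together they held 42.29% of the counts of the whole group. Their median was 577 per kb of exon, 20.17 times the median of all genes and the highest of the role groups. Per kb of coding sequence it was 10.05 times the median of genes with a coding sequence, under the 10.9 times of the SR and SR-like genes. Hnrnpab, which encodes a protein of the hnRNP A/B class related to hnRNP D, stood first of all 87 genes at 2151 per kb of exon, with a mean normalized count of 14252. It was also first per kb of coding sequence, but per kb of the longest transcript (2287) it was under Hnrnpl (3405), Hnrnpa2b1 (2705), Ptbp1 (2517) and Sf3b2 (2334). It lies at chr11:51487363-51510327 on the minus strand of GRCm39, and 35.51% of its exon bases are also exons of Phykpl on the opposite strand. Hnrnpa1, an abundant repressor of exons (chr15:103148339-103155125, plus strand), followed at 1645 per kb with a mean of 6047. Hnrnpa2b1, which also takes part in RNA transport (chr6:51435248-51448049, minus strand), stood at 1424 per kb with a mean of 14842. Hnrnpl, a reader of CA repeats, was at 1400 per kb, and Hnrnpu, a nuclear scaffold protein, was at 1329 per kb and had the highest mean of the group, 15412. The lowest of the hnRNP genes per kb of exon were Hnrnpr at 104.3 and Hnrnph3 at 70.95. Both were above the median of all genes, but Hnrnph3 was just under the 72.65 per kb of protein-coding genes.

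Relatives within the hnRNP families were compared per kb. In the A family Hnrnpa1 was 1.498 times as high per kb as Hnrnpa0 (1098 per kb) and 2.373 times as high as Hnrnpa3 (693.1 per kb). The order of Hnrnpa1 and Hnrnpa2b1 depended on the length used: the ratio was 1.155 per kb of exon, 0.7169 per kb of the longest transcript and 0.4162 per kb of coding sequence. In the H/F family, which binds runs of G, Hnrnph1 stood at 1016 per kb, 4.835 times Hnrnph2 (210.1 per kb), 6.272 times Hnrnpf (162 per kb) and 14.32 times Hnrnph3, the last being 8.196 times per kb of coding sequence. Hnrnpl was 11.42 times as high per kb as Hnrnpll, its relative known from the activation of lymphocytes, which stood at 122.6 per kb, and 4.729 times per kb of coding sequence. Hnrnpu was 2.541 times as high as Hnrnpul1 (1.602 times per kb of the longest transcript) and 2.409 times as high as Hnrnpul2. Hnrnpab was 5.251 times as high as Hnrnpd, which binds AU-rich elements, and 5.503 times as high as Hnrnpdl. The H/F, L, U and D orders with the named gene first held under all 3 lengths.

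Of the 13 SR and SR-like genes, 12 reached a mean of 10 and 8 were in the top 10% of the table. The median was 350.7 per kb, 12.26 times that of all genes. Srsf2, a factor for exon enhancers that is mutated in myeloid disease (chr11:116740723-116744518, minus strand), was highest at 1584 per kb of exon with a mean of 5708, and 67.59% of its exon bases are exons of Mettl23 or Mfsd11 on the opposite strand. Srsf1, the prototype of the family (chr11:87938129-87944581, plus strand), followed at 1434 per kb with a mean of 8288, and Srsf6 (chr2:162773299-162780234, plus strand) at 878.5 per kb with a mean of 5404. Per kb of coding sequence Srsf1 (10920) was above Srsf2 (8610). Srsf3, the smallest of the classical SR proteins, and Srsf7, both also known for export of mRNA, were at 495.7 and 449.5 per kb of exon. Their ratio was 1.103 on that scale, 1.579 per kb of the longest transcript and 1.766 per kb of coding sequence. Tra2a and Tra2b, which bind GAA-rich exons, stood at 274 and 232.9 per kb, and their order turned under the other lengths, with ratios of 0.9703 per kb of the longest transcript and 0.9806 per kb of coding sequence. Srsf9 at 163.7 per kb of exon was the lowest but one. Srsf12 (chr4:33208971-33234051, plus strand) was at 0.2333 per kb, far under all its relatives, with a CG-rich window as shown above.

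SR genes are known to limit their own expression through transcripts that contain a premature stop and are removed by nonsense-mediated decay. In the GENCODE annotation all 12 coding SR and SR-like genes at a mean of 10 or more had at least 1 transcript annotated for this decay, with a median of 21.5 such transcripts a gene. Of all their annotated transcripts 54.47% were of this kind, against 32% for the 11827 coding genes at that mean and a median of 4 such transcripts a gene. Srsf5, with 55 of 97 transcripts, had the most of the whole group, followed by Celf4 with 43, Srsf7 with 35 and Sf3b3 with 34. The group as a whole was close to the background: 66 of 81 genes (81.48%) had at least 1 such transcript, against 76.6%. The count was 14 of 20 for hnRNP genes, 4 of 7 for Sm genes and 11 of 14 for tissue regulators. Of their transcripts 25.39%, 22.37% and 16.06% were of this kind. For PRPF, SF3 and U2AF genes the count was 12 of 13, 7 of 9 and 2 of 2. Their shares of transcripts, 43.46%, 40.83% and 46.3%, were also above the 32% of all coding genes. The 4 coding genes particular to U1 and U2 all had such a transcript, with a share of 26.76%. These are properties of the annotation, and the amount of each transcript was not measured.

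The Sm proteins form a ring of 7 on the snRNAs of U1, U2, U4 and U5. All 7 genes reached a mean of 10, from 305.3 for Snrpg to 1802 for Snrpb. Per kb they were near each other, with Snrpf highest at 462.6, Snrpd3 at 419.4, Snrpb at 299.7, Snrpe at 197.1, Snrpg at 186.9 and Snrpd2 lowest at 152.9. The highest was 3.026 times the lowest, and this range was 2.483 per kb of the longest transcript and 3.878 per kb of coding sequence. Which subunit came first changed with the length: Snrpf per kb of exon, Snrpb per kb of the longest transcript and Snrpd3 per kb of coding sequence. For Snrpf, 82.65% of exon bases are also exons on the opposite strand, of Ccdc38 or 4933408J17Rik.

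Of the proteins particular to U1 and U2, Snrpa (the U1 protein A) stood at 310.8 per kb, Snrpa1 (the U2 protein A′) at 220.9, Snrpb2 (the U2 protein B″) at 136.8 and Snrpc (the U1 protein C) at 125.2. Snrpa was 2.483 times as high as Snrpc per kb of exon, but 0.9663 times per kb of coding sequence. Snrpb was 2.19 times as high per kb as Snrpb2, a gene of similar name but of another protein family. Snrpert, a processed copy of Snrpe on chr2:131164008-131164286, was listed at a mean of 37.01, against 978.1 for Snrpe. It is much shorter, and Snrpe was 1.486 times as high per kb of exon and 1.975 times per kb of the longest transcript.

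**Figure D2:**
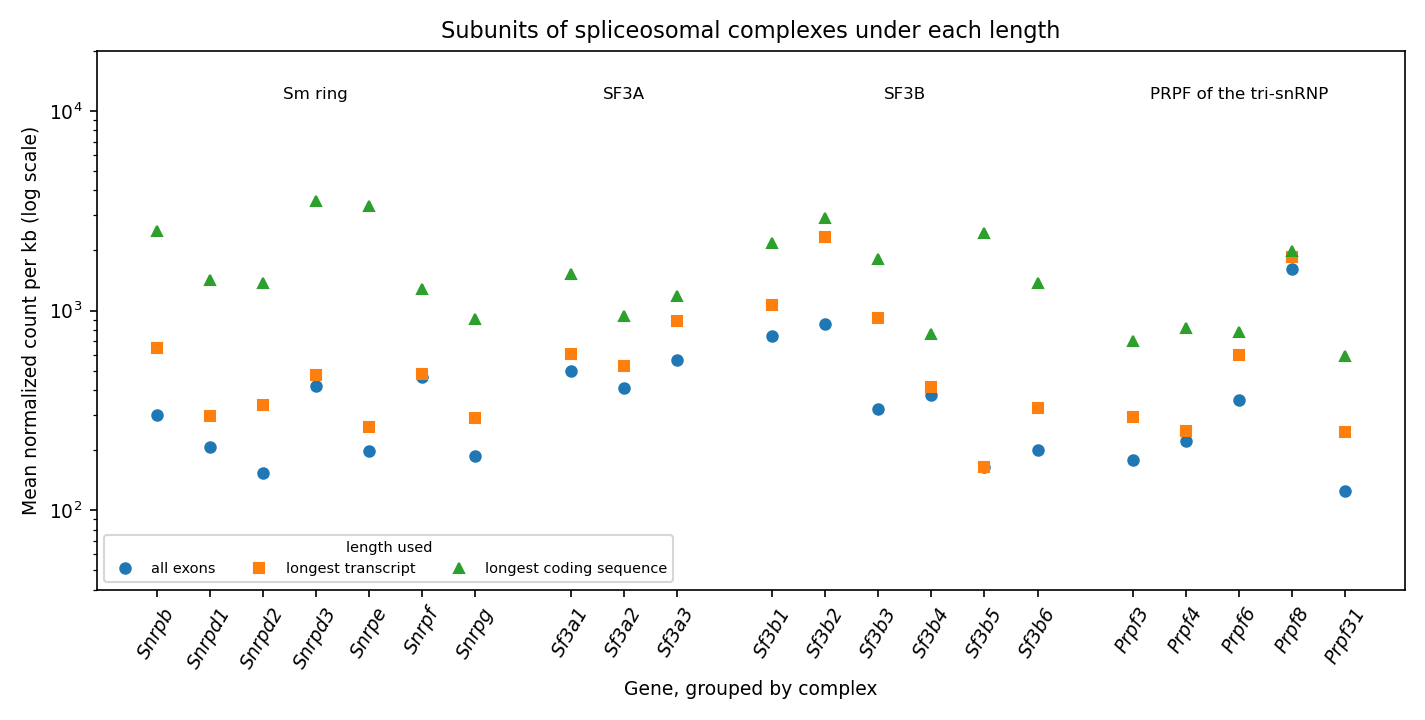
Mean normalized count per kb (log scale) of the subunits of 4 spliceosomal complexes, with the length taken from all exons (circles), the longest transcript (squares) or the longest coding sequence (triangles). Each point is the authors' mean over 6 samples without an error. Sm subunits lie within 3.026-fold per kb of exon, while Prpf8 lies above the 4 other PRPF proteins shown for every length.

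U2AF binds the end of the intron as a pair of a large subunit, U2af2, and a small one, U2af1. U2af2 (chr7:5065107-5082946, plus strand) was at 716.6 per kb with a mean of 3281, and U2af1 (chr17:31866036-31878236, minus strand) at 216.8 per kb with a mean of 896.8, a ratio of 3.306 per kb of exon that was 2.2 per kb of the longest transcript and 1.895 per kb of coding sequence. U2af1l4 was at 2.005 per kb, and 65.46% of its exon bases are shared on the same strand with Gm49396, which had a mean of 23.74. Reads on bases shared by 2 genes on a strand cannot be assigned to either, so the level of U2af1l4 is uncertain.

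The SF3A and SF3B complexes belong to U2 and hold the branch point. All 9 subunits reached a mean of 10, 7 were in the top 10% of the table, and the median was 407.2 per kb. Sf3b2 was highest at 851.2 per kb, followed by Sf3b1, the subunit most often mutated in myeloid disease, at 741.7 per kb with a mean of 8482. The 3 SF3A subunits were near each other per kb, with Sf3a3 at 566.1, Sf3a1 at 500.2 and Sf3a2 at 407.2. Their range was 1.39-fold per kb of exon, 1.684-fold per kb of the longest transcript and 1.609-fold per kb of coding sequence. The 6 SF3B subunits spanned 5.189-fold, from Sf3b2 down to the small subunits Sf3b6 at 200 per kb and Sf3b5 at 164 per kb. That span was 14.23-fold per kb of the longest transcript and 3.816-fold per kb of coding sequence, where Sf3b4 and not Sf3b5 was lowest.

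The 13 PRPF genes had a median of 178.7 per kb and all reached a mean of 10. Prpf8, the large protein at the catalytic centre of the spliceosome (chr11:75377620-75400288, plus strand), was highest at 1621 per kb of exon with a mean of 13897. Prpf19, a ubiquitin ligase, followed at 485.1 per kb and Prpf6 at 357.1 per kb. Per kb of coding sequence Prpf19 (2135) was above Prpf8 (1984). Prpf8 was 4.539 times as high per kb as Prpf6, 7.331 times as high as Prpf4, 9.07 times as high as Prpf3 and 12.97 times as high as Prpf31, which are its partners in the tri-snRNP. Per kb of coding sequence these ratios were 2.551, 2.415, 2.818 and 3.338, and per kb of the longest transcript that to Prpf31 was 7.587. The lowest per kb of exon were Prpf40b at 86.07 per kb and Prpf39 at 83.87 per kb, a pair of U1-associated proteins.

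The tissue regulators, families that hold both widely expressed and tissue-restricted members, covered the widest span. Their median was 38.09 per kb of exon, 1.331 times the median of all genes but under the 72.65 per kb of protein-coding genes. Per kb of coding sequence it was 1.934 times the median of genes with a coding sequence. Of the 17 genes, 4 were in the top 10% of the table and 14 reached a mean of 10. Ptbp1 (chr10:79690261-79700605, plus strand), the repressor of neuronal exons in cells other than neurons, stood at 1761 per kb with a mean of 8483, and was second of all 87 genes per kb of exon. Ptbp3 was at 688.7 per kb, and Ptbp2, the neuronal form, was at 83.82 per kb with a mean of 1039. Ptbp1 was thus 21.01 times as high as Ptbp2 and 2.558 times as high as Ptbp3, and 7.439 and 1.469 times per kb of coding sequence.

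Celf1, a widely expressed member of its family, was at 459.6 per kb. That was 12.06 times Celf2 (38.09 per kb), 61.06 times Celf4 (7.526 per kb) and 85.7 times Celf5 (5.362 per kb). The ratio to Celf2 was 4.531 per kb of the longest transcript and 4.161 per kb of coding sequence, and that to Celf4 was 31.79 per kb of the longest transcript. Celf6 (chr9:59485200-59519885, plus strand) was at 0.08489 per kb and was the lowest of the 87. Of the Mbnl proteins, which steer exon use in muscle and are sequestered in myotonic dystrophy, Mbnl2 was at 245.6 per kb, Mbnl1 at 98.03 and Mbnl3 at 19.29. Mbnl2 was 2.506 times as high as Mbnl1, and 1.578 times per kb of coding sequence, and it was 12.74 times as high as Mbnl3, and 24.78 times per kb of the longest transcript. Rbfox2 was at 434.8 per kb with a mean of 3696, while Rbfox1, Rbfox3 and Celf3 were not analysed here. Qk, the quaking protein known from myelin and from epithelial to mesenchymal transition, was at 238.1 per kb with a mean of 3906.

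Both epithelial regulators were under the median of all genes per kb, but Esrp2 was close to it, at the 48.28th percentile. Esrp2 was at 24.66 per kb with a mean of 193.7, and Esrp1 (chr4:11331933-11386875, minus strand) was at 0.9405 per kb with a mean of 7.365, so Esrp2 was 26.22 times as high, and 14.76 times per kb of the longest transcript. For Esrp2, 47.82% of exon bases are also exons on the opposite strand, of Nfatc3 or 1810019D21Rik. Nova1, of the neuronal Nova proteins, was at 11.52 per kb, 10.35 times Nova2 at 1.113 per kb, and 16.74 times per kb of the longest transcript and 16.89 times per kb of coding sequence. Esrp2, Mbnl3, Nova1, Celf4, Celf5, Nova2, Esrp1 and Celf6 together with Srsf12 and U2af1l4 made up the 10 genes under the median of all genes per kb.

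**Figure D3:**
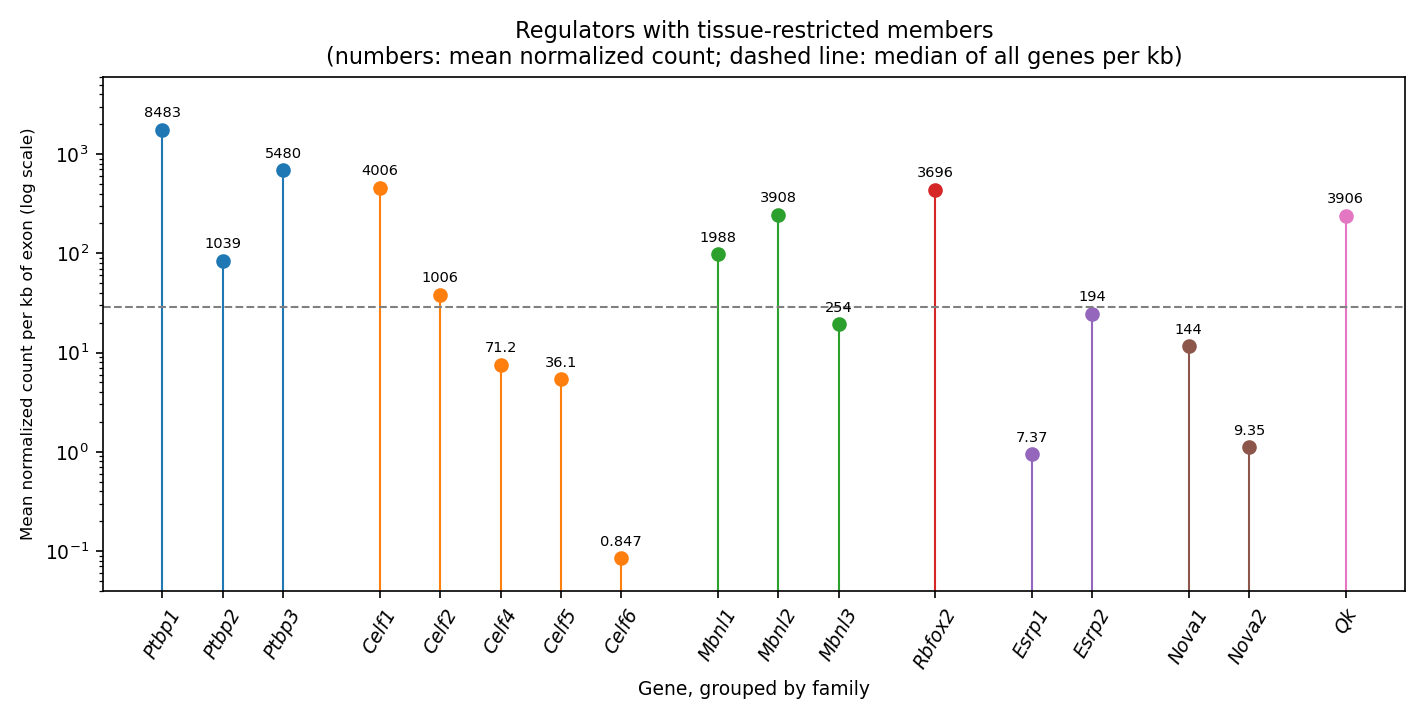
Mean normalized count per kb of exon (log scale) of the 17 tissue regulators by family, with the mean normalized count printed above each point and the dashed line at 28.61 per kb, the median of all genes. Each point is the authors' mean over 6 samples without an error. In each family with several members the highest is at least 2.506 times the next on this scale, and Esrp1, Nova2 and Celf6 are near or under 1 per kb.

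The label of the cell line was set against markers. Of 10 markers of the distal convoluted tubule, 4 had a mean of at least 10: Wnk1 (8468), Stk39 (620.7), Wnk4 (413.4) and Trpm6 (29.63). Klhl3 had 5.704, and Slc12a3, the defining sodium chloride cotransporter, Pvalb, Calb1, Slc8a1 and Fxyd2 were not analysed here, so the table did not show the defining markers of that segment. Of 6 epithelial markers only Epcam (115.4) reached 10, whereas Grhl2 had 1.818 and Krt8 had 0.9803. The mesenchymal markers Vim (17450) and Fn1 (26326) were high, Col1a1 had 200.6, and Col1a2 (2.711) and Pdgfrb (4.477) were low. Tubb3 (432.3) and Syt1 (52.05) of the 5 neuronal markers reached 10, and Elavl3 had 0.8441. Pecam1 had 4.682 and Ptprc 5.365, and the 3 muscle markers were not analysed here. The part of these cell states in the levels of Esrp1, Esrp2, Ptbp1 and Qk was not tested.

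Other genes of the splicing pathway, a list of 51 kinases, helicases, LSm proteins, assembly factors and further RNA-binding proteins, stood at similar height. All 51 had a mean of at least 10, 17 were in the top 10% per kb, the median level was 216.7 per kb and the median percentile was 84.61. Khsrp, a relative of the Fubp proteins, was the highest at 1760 per kb, followed by Pcbp1 at 1589 and Pcbp2 at 998.5, both poly(C)-binding proteins. Eftud2, the partner of Prpf8 in U5, was at 618.8 per kb, and Tardbp, an RNA-binding protein that represses cryptic exons, was at 563.6 per kb. Of the kinases that phosphorylate SR proteins, Srpk1 was at 283.4, Dyrk1a at 282.2, Clk2 at 194.1 and Clk1 at 151 per kb. Srpk2 was at 115.1, Clk3 at 78.61 and Clk4 at 50.51 per kb. Srpk3, known from muscle, was at 7.703 per kb and was the single gene of the list under the median of all genes.

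Many of these genes have processed copies elsewhere in the genome, and a read that maps equally well to a copy is not counted under the default settings the authors named. Windows of 42 bases along the main transcript of each gene were looked up in GRCm39 outside the gene. At least 1 such window recurred for all but 27 of the genes, 24 genes had over 10% repeated windows, 7 had over 50%, and 40 had under 1%. Hnrnpa1 had 95.7% repeated windows and Hnrnpa3 90.1%, followed by U2af1 with 71.5%, Snrpc with 68.3%, Hnrnph2 with 61.6%, U2af2 with 55.6% and Srsf10 with 54.5%. Within the H/F family Hnrnpf had 38.8%, Hnrnph1 14.9% and Hnrnph3 0%, and the effect of these unlike shares on the H/F ratios above was not tested. Hnrnpab, Hnrnpu, Hnrnpa0, Prpf8 and Srsf1, all near the top of the group, had no repeated window. Across the 86 coding genes the level per kb and the share of repeated windows had a Spearman correlation of 0.1859, a description over genes that share libraries.

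In the table, 64 pseudogenes matched these genes at 20 or more windows, with a summed mean of 857.5. Of these 23 matched Hnrnpa3, with 1.283% of its mean between them, and 9 matched Hnrnpa1, with 0.9027% of its mean. The copy of Snrpf had a mean of 208.1, which is 32.53% of that of Snrpf, and that of Snrpg had 47.34, or 15.5%. For Hnrnpk, the copies held 276.7, or 3.525%. How many reads of each gene were lost or moved to a copy was not tested, so levels of the genes named here with a high share, Hnrnpa1 and Hnrnpa3 first, are uncertain.

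**Figure D4:**
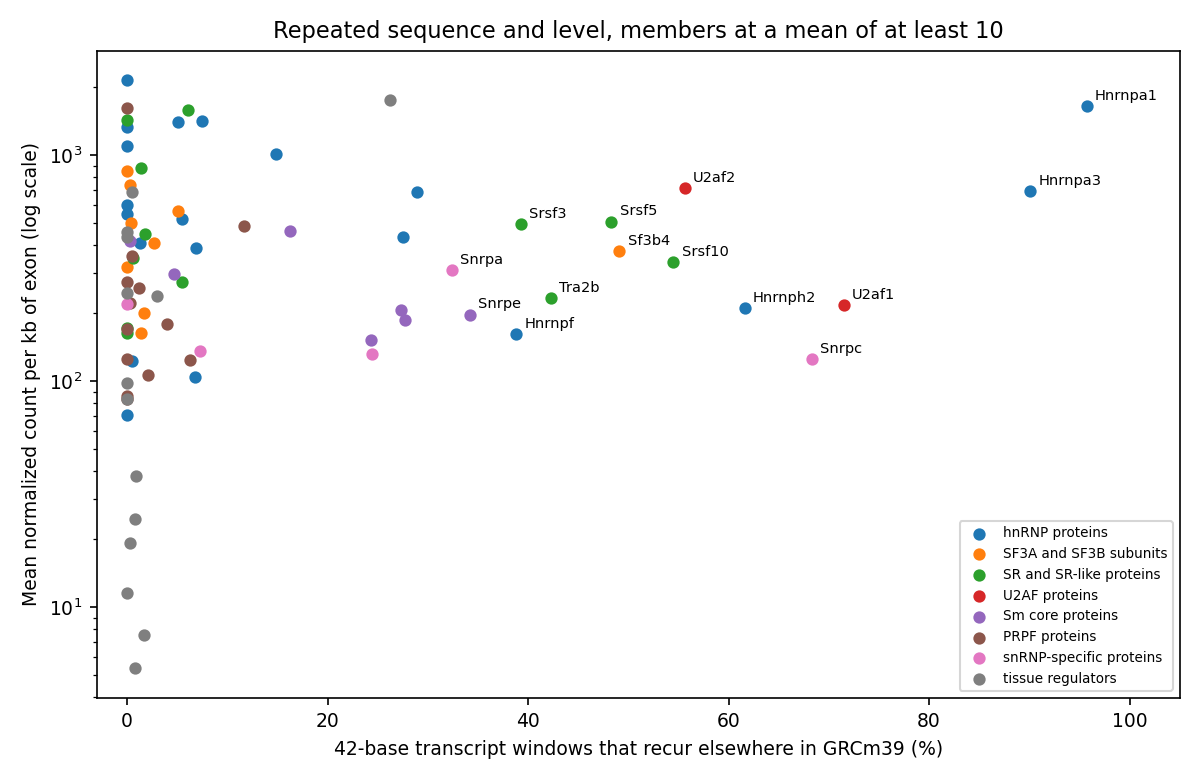
Share of 42-base windows of the main transcript that recur elsewhere in GRCm39 (x axis, percent) against mean normalized count per kb of exon (y axis, log scale) for the 82 genes at a mean of at least 10, coloured by role group and named above 30%. Each point is 1 gene, the authors' mean over 6 samples. Hnrnpa1 and Hnrnpa3 stand at 95.7% and 90.1%, and high genes are also found at 0%.

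Several of the genes start next to another coding gene that runs the other way. Of the 81 coding genes at a mean of 10 or more, 12 (14.81%) had the start of such a neighbour within 1000 bases upstream on GRCm39, against 975 of 11827 coding genes (8.244%). The closest were Sf3b3 and Cog4, 2 bases apart, Srsf7 and Ttc39d, 10 bases apart, and Snrpd3 and Gucd1, 51 bases apart. Hnrnpa1 and Cbx5, 394 bases apart, were both high, with means of 6047 and 16032. Srsf7 and Ttc39d were unlike, with means of 2750 and 4.32. For U2af1l4, which is under a mean of 10 and not in that count, the neighbour Psenen started 70 bases away and had a mean of 181.6.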

How the data were processed

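RNA of 3 Pkd1-/- and 3 wild type samples of mDCT15 cells, grouped by their titles, was depleted of ribosomal RNA, made into KAPA RNA HyperPrep libraries and sequenced. Per the methods and the submitters' processing notes, the authors trimmed reads with Trim Galore 0.4.5, mapped them with STAR 2.7.5a to GRCm39, counted them per gene with HTSeq 0.11.0 at its default settings, then normalized and compared the counts (DESeq2 1.22.0, R 3.5.3). HTSeq by default counts by strand and drops reads that map to several places or to shared bases. Whether its strand setting matched the kit was not tested.

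The deposited signal is the authors' mean normalized count per gene, read counts divided by a size factor per library and averaged over all samples. The lowest mean in the table is 0.6176, which lies below the minimum number of counts per sample that the methods state. The other columns hold the authors' log2 fold changes, standard errors, statistics and p-values between genotypes, which are the study's findings and are not used here. Values of single samples and the depth per library were not analysed here, so no test, error or interval is given, and the test designed for counts of single samples was not applied. Precision is unknown, and the lowest means are the least reliable.

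Identifiers were matched to GENCODE on GRCm39 (20122 of 20624, 97.57%). Means were divided by summed exon length in GENCODE, which is not the Ensembl release on which the authors counted reads. Overlaps and annotated transcripts also follow GENCODE, and the effect of the difference was not tested. The highest row of the table, Gm26917, held 6.287% of all counts. Promoters came from RefSeq on GRCm38.p6, and no coordinate was carried between builds. Window and length counts were tested on simulated data. Members and lists were chosen with earlier results of these data known. Named genes are the 3 highest and 2 lowest of each role group per kb, every tissue regulator, every gene under a mean of 10, and fixed sets of relatives. The sets within U1, U2, U2AF, SF3, Sm, the tri-snRNP and hnRNP D, L and U, and genes named for copies, overlaps, annotation, neighbours or the pathway, were chosen after values were seen.

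Alternatives were other lengths, other minimum means, other sets of genes for percentiles and shares, and leaving out genes with repeated sequence. Without replicates, a value was taken as unmoved within 1.5-fold. Tools were numba 0.67.0, scipy 1.17.1, pandas 2.3.3, matplotlib 3.10.9 and numpy 2.4.6 under Python 3.11.15.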

Additional observations from a re-analysis of the deposited data

How the results depend on the processing

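No paired analysis was possible because no value of a single sample was analysed here, and for the same reason the replicates were not left out in turn and the tests planned for counts were not run. No symbol occurred more than once, so summing repeated symbols could not be tried. The count of genes reaching the minimum mean, the median percentile and the share of all counts stayed within 1.5-fold under every alternative run, including the share without the highest row, which was added after seeing the data.

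The median level of a role group, over the median of all genes, moved by more than 1.5-fold under some lengths. Per kb of coding sequence the reference was the median of genes with a coding sequence, so length and reference changed together. On that scale the level was 10.05 for hnRNP, 4.69 for SF3, 4.396 for Sm, 3.758 for U2AF and 2.541 for PRPF proteins. SR proteins, at 10.9, moved less and then ranked above hnRNP proteins. Per kb of the longest transcript the level over the median of all genes was 18.7 for SR proteins, 13.37 for U2AF and 2.813 for tissue regulators. Without genes that have over 10% repeated windows it was 12.57 for Sm proteins and 0.07008 for U2AF, which then holds U2af1l4 alone and so reverses. Ratios that turned were Hnrnpa1 over Hnrnpa2b1 (0.7169 and 0.4162 for transcript and coding length), Tra2a over Tra2b (0.9703 and 0.9806) and, for coding length, Snrpa over Snrpc (0.9663). Of the other ratios and ranges, 11 moved without turning under transcript length and 14 under coding length.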
